A study of Trichoderma reesei QM6a with 4 samples.

Results

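Messenger RNA of 4 endoplasmic reticulum (ER) folding genes of the fungus Trichoderma reesei was examined: bip1 (ASTRICH122920 on the array), pdi1 (ASTRICH122415), calnexin, written cnx1 here (ASTRICH73678), and hac1 (ASTRICH46902). They were chosen by these array gene names, and make up 4 of the 9127 genes and 20 of the 43565 probes on the array. The reference annotation gives the symbols bip1 and pdi1 to the locus tags with the same numbers, TRIREDRAFT_122920 and TRIREDRAFT_122415. It gives no symbol to TRIREDRAFT_73678 and TRIREDRAFT_46902, so the names cnx1 and hac1 rest on the published naming of these loci. Mycelium of AT01, a mutant labelled as having a high ability for copper accumulation, was compared with mycelium of the wild type (WT), with 2 one-colour Agilent arrays per strain. Cultures of both strains were kept at 25 °C for 5 days in rich YPD medium that held 1 mM CuSO4, so copper was present in every culture and its own effect cannot be read from these arrays. The way AT01 was obtained, its parent strain and its mutation remain not given in the sources used here. No label ties the 2 arrays of a strain to separate cultures, so the p-values cover array-to-array spread that may be technical only.

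Proteins that a fungus secretes enter the ER first, where they fold before they travel on in vesicles. BiP is the Hsp70 chaperone of the ER lumen and holds unfolded chains. Protein disulfide isomerase, the product of pdi1, forms and reshuffles disulfide bonds, and calnexin is a membrane-bound lectin that holds glycoproteins while they fold. When unfolded protein builds up, the sensor Ire1 cuts an unconventional intron out of the hac1 mRNA, and the Hac1 transcription factor made from it raises the genes of chaperones and folding enzymes. This pathway, the unfolded protein response, has been studied in T. reesei because the species is grown for the enzymes it secretes. Whether any hac1 probe overlaps the intron was not examined, so the values below are amounts of hac1 RNA and say nothing of its splicing.

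Each array was scaled by subtracting the 75th percentile of its log2 signal, called the scaled log2 signal below, and the 5 probes of each gene were averaged. The AT01 arrays were brighter: that percentile lay at a signal of 41.5 and 39.6 on the AT01 arrays and at 20.9 and 22.2 on the WT arrays. Strains were compared with limma over the 8018 genes that had a probe well above background on each array of AT01, of WT or of both, and a gene was called where its Benjamini-Hochberg adjusted p was under 0.05. All 4 genes entered that test. Of the 20 probes 19 were well above background on all 4 arrays, no spot was saturated and none was outlying. Of all genes tested 14.0% were called higher and 30.4% lower in AT01. The median log2 fold change of all genes was -0.23, so a value of 0 is above the middle of the array. The lowest scaled log2 signal was -4.76 and -4.72 on the AT01 arrays, against -3.88 and -3.82 on the WT arrays. With dim probes raised to 1 common lower limit (-3.82), the median was -0.08, and 1123 genes were called higher and 1198 lower. Without that limit 1122 were called higher and 2436 lower, so the median and the share called lower depend on how dim probes are treated.

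Of the 4 genes, 0 passed the threshold with this scaling in limma, in either direction. At an unadjusted p under 0.05 the count would be 1 of the 4, bip1. Over all genes, 3558 of the 8018 tested passed even after adjustment, so that count does not single bip1 out. The log2 fold changes were 0.38 for bip1, 0.12 for hac1, 0.01 for pdi1 and -0.03 for cnx1, which placed bip1 at the 83.9th percentile of all genes tested, hac1 at the 73.2nd, pdi1 at the 66.7th and cnx1 at the 64.4th. All 4 thus lay above the median gene. The call for bip1 depended on the scaling, as described below.

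The scaled log2 signal of bip1 was 4.02 and 4.26 on the AT01 arrays, against 3.79 and 3.72 on the WT arrays. Both AT01 arrays lay above both WT arrays, a pattern shown by 24.5% of all genes tested. The mean was 4.14 ± 0.17 in AT01 and 3.76 ± 0.05 in WT (SD, n = 2 arrays each), a fold of 1.30, and the log2 fold change of 0.38 ± 0.14 (SE) had an adjusted p of 0.0661 in limma.

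**Figure D1:**
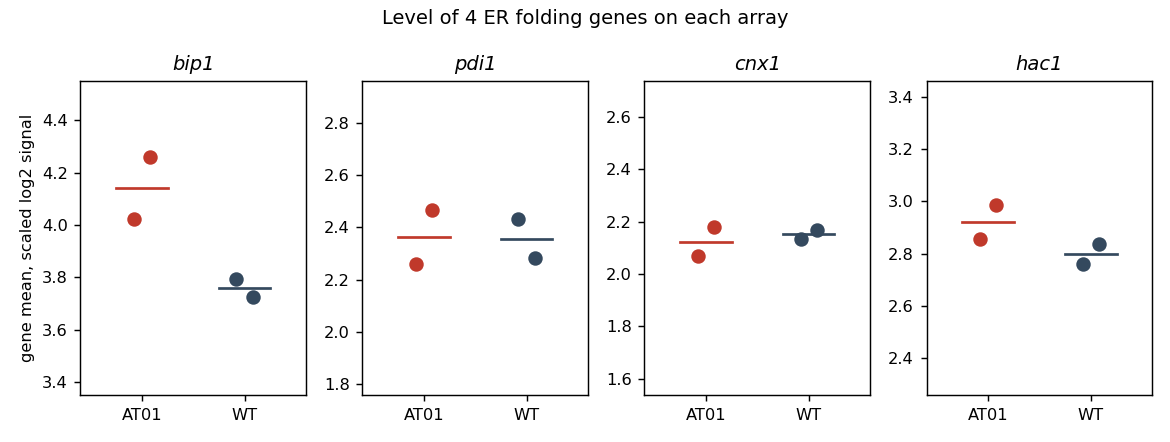
Scaled log2 signal (mean of 5 probes) of bip1, pdi1, cnx1 and hac1 on each of the 2 AT01 and 2 WT arrays, with lines at the strain means; each panel spans the same range of log2 units around its own centre. The AT01 and WT arrays do not overlap for bip1 (4.02 and 4.26 against 3.79 and 3.72) and hac1 (2.86 and 2.99 against 2.76 and 2.84). Both AT01 arrays lie above both WT arrays in 24.5% of all genes tested. The strains overlap for pdi1 and cnx1.

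The 5 probes of bip1, numbered in the order of their probe IDs, were read one by one. Before any scaling, probe 1 had a signal of 1094 and 1514 on the AT01 arrays, against 499 and 428 on the WT arrays. Probe 2 had 1309.7 and 1520.2 on the AT01 arrays, against 577 and 576 on the WT arrays. Both probes were thus brighter on both AT01 arrays, which were brighter as a whole. Probe 3 had 616 and 624 on the AT01 arrays, against 270.3 and 282 on the WT arrays. Probe 4 had 690.1 and 774 on the AT01 arrays, against 315 and 298 on the WT arrays, and the dimmest, probe 5, had 229 and 227 on the AT01 arrays, against 82.4 and 105 on the WT arrays. The ratio of the mean unscaled signal, AT01 over WT, lay between 2.25 for probe 3 and 2.81 for probe 1, while the median ratio over all 25102 probes tested was 1.80. After scaling, the log2 fold changes of the 5 probes were all above 0, between 0.25 and 0.56. In limma over all tested probes 0 of the 5 passed the threshold after Benjamini-Hochberg adjustment (adjusted p 0.135 to 0.225), where 15.2% of all tested probes were called higher and 17.2% lower. Probes of a gene read the same RNA on the same arrays and are not replicates of the strain.

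**Figure D2:**
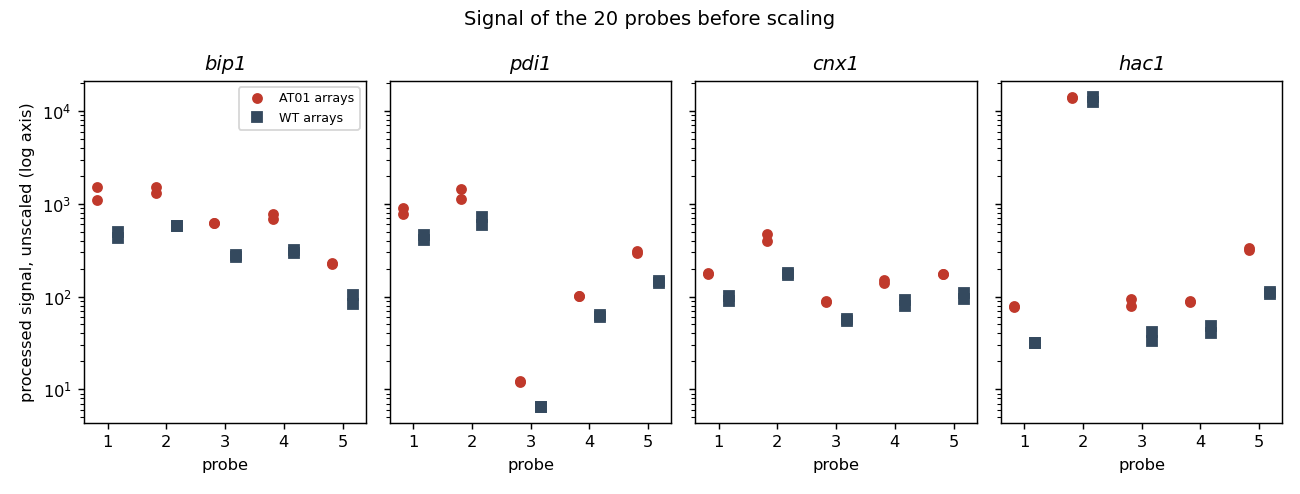
Processed signal before scaling (log axis) of the 5 probes of each gene on the 2 AT01 arrays (circles) and the 2 WT arrays (squares). The AT01 arrays were brighter as a whole, with a median unscaled ratio of AT01 over WT of 1.80 over all 25102 tested probes. The strains overlap for hac1 probe 2, at 13783 to 14088 in AT01 and 12614 to 14345 in WT.

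For pdi1, the disulfide isomerase gene, the strains overlapped. Its scaled log2 signal was 2.26 and 2.46 on the AT01 arrays, against 2.43 and 2.28 on the WT arrays. The log2 fold change was 0.01 ± 0.14 (SE), with a limma adjusted p of 0.974 after Benjamini-Hochberg adjustment. Its probes spread to both sides of 0, between -0.21 for probe 4 and 0.14 for probe 5, and 0 of the 5 was called by limma. Probe 2, the brightest, had an unscaled signal of 1114 and 1451 on the AT01 arrays, against 718 and 585 on the WT arrays. Probe 3 was dim, at 11.9 and 12.4 on the AT01 arrays, where it was well above background, against 6.40 and 6.50 on the WT arrays, where it was not. No fold is given for probe 3, since its WT value is only a bound.

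The calnexin gene cnx1 overlapped between the strains as well. Its scaled log2 signal was 2.07 and 2.18 on the AT01 arrays, against 2.14 and 2.17 on the WT arrays. The log2 fold change was -0.03 ± 0.12 (SE, limma's Benjamini-Hochberg adjusted p = 0.862). Its brightest probe lay apart from the other 4. Probe 2 had an unscaled signal of 398 and 474 on the AT01 arrays, against 179 and 170.1 on the WT arrays, a log2 fold change of 0.40 after scaling. The other 4 probes lay between -0.26 and -0.02. None of the 5 log2 fold changes passed the threshold in limma over all probes (adjusted p 0.147 to 0.931).

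The regulator gene hac1 had a scaled log2 signal of 2.86 and 2.99 on the AT01 arrays, against 2.76 and 2.84 on the WT arrays. Both AT01 arrays lay above both WT arrays, as in 24.5% of all genes tested, but the highest WT array and the lowest AT01 array nearly met. The log2 fold change was 0.12 ± 0.12 (SE, limma's Benjamini-Hochberg adjusted p = 0.447). That mean hid probes that moved in opposite directions.

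Probe 2 of hac1 stood far from the others. Its unscaled signal was 14088 and 13783 on the AT01 arrays, against 12614 and 14345 on the WT arrays, and it lay at the 99.7th percentile of all probes on each of the 4 arrays. The strains overlapped before scaling, and the ratio of means was 1.03. After scaling probe 2 fell, with a log2 fold change of -0.86 ± 0.14 (SE) and a limma adjusted p of 0.0184.

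The other 4 probes of hac1 were dimmer, and all had log2 fold changes above 0. Probe 5 had an unscaled signal of 317 and 334 on the AT01 arrays, against 108 and 111 on the WT arrays, and it rose, by a log2 fold change of 0.66 ± 0.15 (SE, limma adjusted p = 0.0310). This was the highest ratio of unscaled signal among the 20 probes, at 2.98. Probe 1 had 77.3 and 79.98 on the AT01 arrays, against 31.3 and 31.6 on the WT arrays, a log2 fold change of 0.41 that was not called (limma adjusted p = 0.0915). Probes 3 and 4 lay at 0.31 and 0.10 and were not called. The range between the highest and the lowest probe of hac1 was 1.52 log2 units, a width that 14.96% of the 6296 genes with at least 2 tested probes reached. The same range was 0.31 for bip1, 0.35 for pdi1 and 0.66 for cnx1, against a median of 0.72 over all genes, and 84.2% of them had a range at least as wide as that of bip1. With the 4 dimmer probes alone, a choice made after the values were seen, hac1 read 1.47 and 1.62 on the AT01 arrays, against 1.14 and 1.21 on the WT arrays. Its log2 fold change was then 0.37, with a limma adjusted p of 0.0821 after the brightest probe of every gene had been left out. Whether probe 2 also binds another RNA was not tested, because no probe sequence was used here.

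The probes' changes were set against brightness, which moved with the change over the whole array. Probes in the brightest 1% of those tested had a median log2 fold change of -0.88, and 98.4% of these 252 probes lay below 0. Their median unscaled ratio of AT01 over WT was 1.02, close to the 1.03 of hac1 probe 2, which belongs to them. From the 80th to the 99th percentile the median was -0.51, and from the 60th to the 80th it was -0.08. All 5 probes of bip1 lay between the 86.2nd and the 95.9th percentile of the tested probes. They had changes above 0, as had 28.3% of the probes from the 80th to the 99th percentile. Probes 1 and 2 of pdi1 lay at the 94.4th and 95.9th percentile with log2 fold changes of 0.04 and 0.06, above the median of that brightness range. Of the 5 probes of cnx1, 4 lay between the 83.6th and the 91.1st percentile, and the other one at the 77.1st. The part that brightness has in these changes was not tested.

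**Figure D3:**
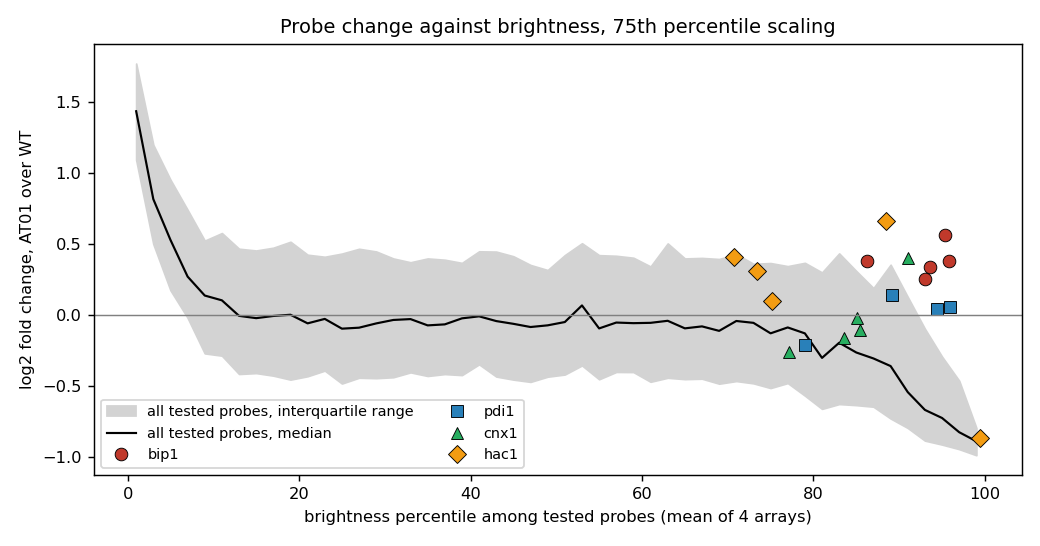
Log2 fold change of AT01 over WT, 75th percentile scaling, against the brightness percentile of a probe among the tested probes; the line is the median and the band the interquartile range of all tested probes in steps of 2 percentile points, and symbols are 19 of the 20 probes of the 4 genes, without pdi1 probe 3. The median falls among the brightest probes, the 5 bip1 probes lie above it at 0.25 to 0.56, and hac1 probe 2 lies on it at -0.86.

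Differences between 2 genes on the same array do not depend on that array's scaling constant, and were compared over the 6 pairs. They do move under normalizations that act on bright and dim signals unequally. The scaled log2 signal of bip1 minus that of pdi1 was 1.76 and 1.80 on the AT01 arrays, against 1.36 and 1.44 on the WT arrays. For bip1 minus cnx1 the values were 1.95 and 2.08 on the AT01 arrays, against 1.66 and 1.55 on the WT arrays. In both pairs every AT01 array lay above every WT array, by changes of 0.38 and 0.41 log2 units. The SD between the 2 arrays of a strain was at most 0.09, a spread that may be technical only. With the brightest probe of each gene the change of bip1 minus cnx1 was -0.03, with log2 fold changes of 0.38 for that probe of bip1 and 0.40 for that of cnx1. For bip1 minus hac1 the values were 1.17 and 1.27 on the AT01 arrays, against 1.03 and 0.89 on the WT arrays, a change of 0.26. With the 4 dimmer hac1 probes this last change was 0.01 and the strains overlapped, but it was 0.41 with quantile normalization, 0.35 with cyclic loess, 0.36 with normexp background correction and 0.36 in the authors' deposited table. With all 5 hac1 probes, quantile normalization gave changes of 0.56 for bip1 minus pdi1, 0.73 for bip1 minus cnx1 and 0.50 for bip1 minus hac1. The same changes were 0.54, 0.65 and 0.42 with cyclic loess, 0.52, 0.48 and 0.51 with normexp, and 0.53, 0.68 and 0.44 in the authors' deposited table. All 3 were thus larger in these 4 settings than with 75th percentile scaling. The difference of pdi1 minus cnx1 changed by 0.04 and overlapped between strains, and that of pdi1 minus hac1 changed by -0.12 and overlapped. The 4 dimmer hac1 probes minus pdi1 stood at -0.79 and -0.84 on the AT01 arrays, against -1.29 and -1.07 on the WT arrays, a change of 0.36 without overlap. The difference of cnx1 minus hac1 changed by -0.15 without overlap, at -0.79 and -0.81 on the AT01 arrays, against -0.62 and -0.67 on the WT arrays. Taken the other way round and with the 4 dimmer probes, hac1 minus cnx1 changed by 0.40, also without overlap, at -0.60 and -0.56 on the AT01 arrays, against -0.996 and -0.957 on the WT arrays. By a two-sided exact permutation test the 4 of the 6 pairs without overlap had p = 0.333, the smallest that 2 arrays against 2 allow, and 0.5 after Benjamini-Hochberg adjustment over the 6 pairs. This exact test cannot reach the threshold for any pair with 2 arrays per strain. Lack of overlap was common among single genes, with 24.5% wholly higher and 51.4% wholly lower in AT01. The share over all pairs of genes was not computed, so the count of 4 is not read as a trait of these pairs.

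Other scalings were applied to the same arrays. With quantile normalization, which gives all arrays one distribution of signal, bip1 rose, by a log2 fold change of 0.87 ± 0.17 (SE, limma adjusted p = 0.0190). The median of all genes was then -0.01, and 14.2% of genes were called higher and 9.09% lower. With cyclic loess it rose by 0.84 ± 0.15 (limma adjusted p = 0.0126, where 14.8% of genes were called higher). In the authors' deposited value table, whose 4 columns have a median of 4.31 each, it rose by 0.79 ± 0.14 (limma adjusted p = 0.0158, where 14.9% of genes were called higher). These 3 settings start from the same arrays and are not independent of one another. It was also called with the percentile taken over detected probes (0.50, where 16.5% of genes were called higher), with a trended and robust variance prior (0.38, 15.7%) and with normexp background correction (below). Over all 20 settings bip1 was called higher in 6 and lower in 0, and its log2 fold change ran between 0.26 and 0.87, above 0 in all 20. These 20 values are not separate tests of its sign, since several settings left the value at 0.38. It stayed there with the common lower limit, the mean over detected probes, and a stricter or no filter on dim genes. The same held with the trended and robust prior, the replicate number as a block, and outlying spots left out. Leaving out 1 array gave 0.26 to 0.50 and no call. The lowest of these came without AT01 array 2, which had the higher bip1 signal of the AT01 arrays.

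The other 3 genes were not called with quantile normalization, cyclic loess or the deposited table. With quantile normalization pdi1 had a log2 fold change of 0.31 (limma adjusted p = 0.203), cnx1 0.14 (adjusted p = 0.469) and hac1 0.37 (adjusted p = 0.0982). With normexp background correction pdi1 rose by 0.25, cnx1 by 0.29 and hac1 by 0.25 (limma adjusted p = 0.0339, 0.00895 and 0.0103). In that setting bip1 rose by 0.76 (limma adjusted p = 0.00292), and 11.0% of genes were called higher and 61.3% lower. Its offset of 50 was above the 75th percentile of the processed signal on every array, which was at most 41.5. The part of that offset in these calls was not tested. By probe, quantile normalization called 4 of 5 bip1 probes higher, at up to 1.19, together with hac1 probe 5 at 0.92 (limma adjusted p = 0.0260), where 14.2% of all tested probes were called higher. With it hac1 probe 2 lay at 0.00 and was not called. The probes called higher numbered 7 with cyclic loess, 5 in the deposited table and 11 with normexp, where 15.0%, 15.2% and 12.3% of all tested probes were. Normexp called 2 lower, hac1 probe 2 and pdi1 probe 3, against 14.6% of all tested probes. The call for pdi1 probe 3 is not read as a change, since that probe was not well above background in WT. The brightest probe of each gene gave -0.86 for hac1, a fall (limma adjusted p = 0.0171, where 29.9% of genes were called lower), and 0.40 for cnx1, not called.

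**Figure D4:**
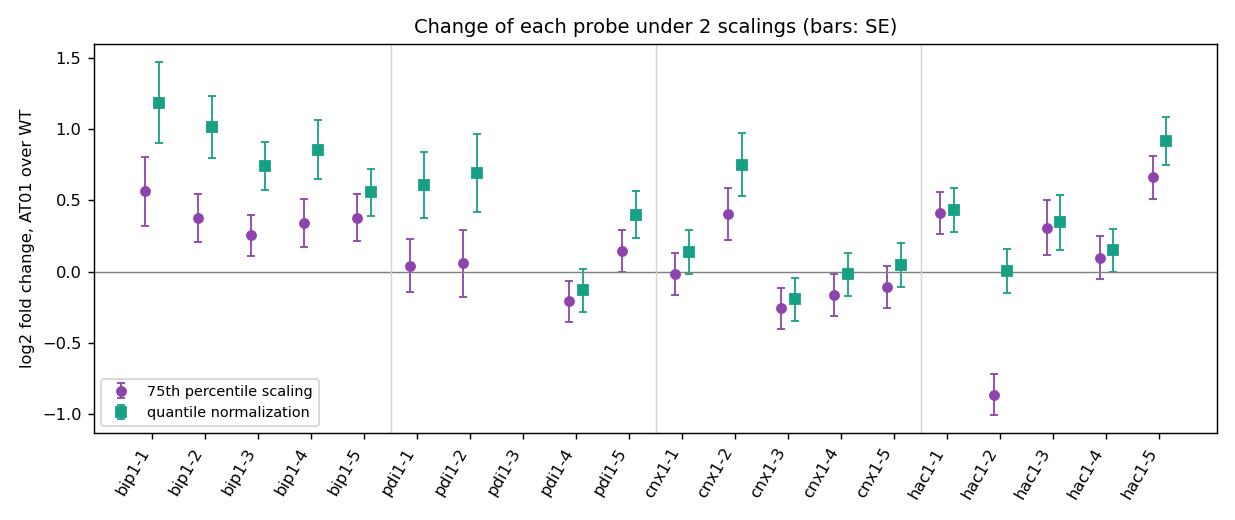
Log2 fold change of AT01 over WT for the probes with 75th percentile scaling (circles) and quantile normalization (squares), with bars of 1 SE from limma. Quantile normalization moves the bright probes up, bip1 to between 0.56 and 1.19 and hac1 probe 2 to 0.00. Of the 20 probes 19 are shown, and pdi1 probe 3 is left out because it was not well above background in WT.

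**Figure D5:**
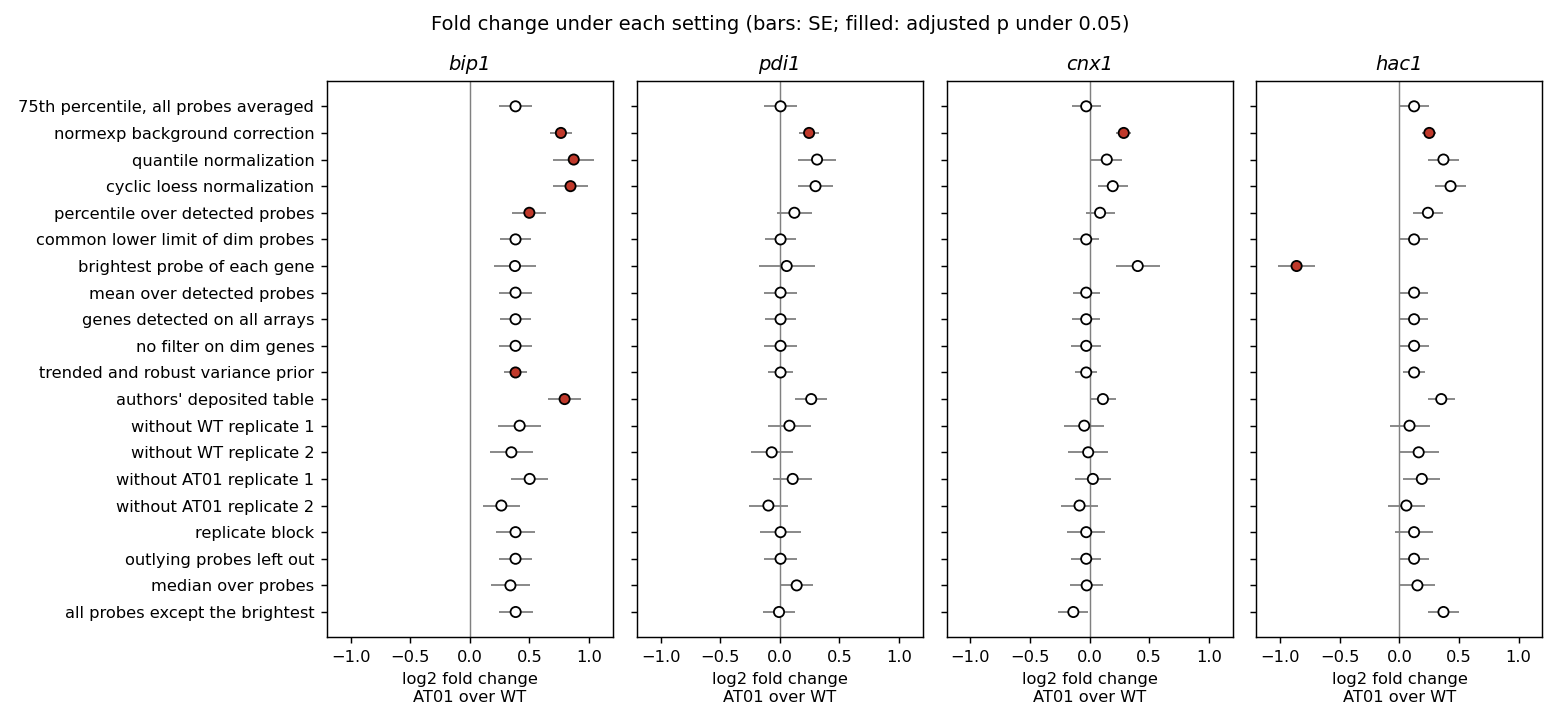
Log2 fold change of AT01 over WT (bars: SE) of the 4 genes under all 20 settings, filled where the adjusted p was under 0.05. For bip1 all 20 values lie above 0 and 6 are filled. Several settings leave the value of a gene unchanged, so the 20 values are not separate tests of its sign. The value of hac1 is above 0 in 19 and turns to -0.86 with its brightest probe alone. Those of pdi1 and cnx1 lie on both sides of 0.

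Other genes of the ER and of secretion were taken from a list of symbols. Besides the 4 genes it found 15 on the array, all tested. The whole list of 19 had 1 gene called higher and 1 lower, where 14.0% of all genes tested were called higher and 30.4% lower. The list median was -0.03 against -0.23 over all genes, and -0.03 against -0.08 with dim probes raised to the common lower limit. Among the ER genes, ire1, the sensor kinase that processes hac1 mRNA, read 1.33 and 1.68 on the AT01 arrays, against 1.56 and 1.46 on the WT arrays. The strains overlapped and the log2 fold change was -0.01 (limma adjusted p = 0.969). The gene ptc2, for a phosphatase whose yeast counterpart holds the response back, read 1.14 and 1.26 on the AT01 arrays, against 1.52 and 1.46 on the WT arrays. Both AT01 arrays lay below the WT arrays, as in 51.4% of genes, and its log2 fold change of -0.29 was not called (limma adjusted p = 0.104). The glycosylation genes dpm1, mpg1 and pmt1, which code for dolichol phosphate mannose synthase, GDP-mannose pyrophosphorylase and a protein O-mannosyltransferase, had log2 fold changes of 0.14, -0.22 and -0.03. Of the 9 ER genes, the 4 included, 0 was called higher or lower by limma, beside the same 14.0% and 30.4% of all genes. Their median was -0.01. At an unadjusted limma p under 0.05 only bip1 passed, where 3558 of all 8018 genes passed even after adjustment.

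Of the 10 genes of vesicle transport and secretion, the GTPase gene rho3 rose by 1.33 ± 0.12 and the syntaxin gene sso1 fell, with a log2 fold change of -0.45 ± 0.13 (SE, limma adjusted p = 0.00281 and 0.0382). The rest were not called. The gene ftt1, for a 14-3-3 protein, read 3.42 and 3.66 on the AT01 arrays, against 3.29 and 3.23 on the WT arrays. Its log2 fold change of 0.28 (limma adjusted p = 0.148) became a rise of 0.67 with quantile normalization (adjusted p = 0.0377), while ftt2, the other 14-3-3 gene on the list, had -0.31 with 75th percentile scaling and 0.07 with quantile normalization, without a call. The COPII GTPase gene sar1 read 0.07 and 0.15 on the AT01 arrays, against 0.04 and -1.06 on the WT arrays. The WT arrays lay far apart, and its log2 fold change of 0.62 was not called (limma adjusted p = 0.186). With quantile normalization 3 of the 19 genes were called higher, bip1, ftt1 and rho3, and 0 lower, beside 14.2% and 9.09% of all genes tested, so the count of higher calls is near that share.

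Mycelium can hold conidia, so hydrophobin genes were read as markers. The gene hfb1, expressed in hyphae, read 0.96 and 0.96 on the AT01 arrays, against 0.35 and 0.43 on the WT arrays, and it rose by 0.57 (limma adjusted p = 0.0148). The gene hfb2, associated with sporulation, read -2.38 and -2.45 on the AT01 arrays, against -2.33 and -2.54 on the WT arrays, with 1 of its 4 probes well above background on all arrays. Most of the hfb2 signal was thus not well above background, and whether that gene differed cannot be read from it. A further planned marker, pks4, was not read here. The part of cell makeup in the values of the 4 genes was not tested. On whole mycelium, less RNA per cell and fewer cells of a kind cannot be told apart.

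For each of the 4 genes the 3 genes with a reference symbol whose pattern over the 4 arrays was nearest were found, by the root mean square difference of scaled log2 signals after each gene's own mean was subtracted. Nearest to bip1 were tr42600 at a difference of 0.03 log2 units, ftt1 at 0.05 and rpb2, a subunit gene of RNA polymerase II, at 0.07. Nearest to pdi1 were tr43351 at 0.02, cit1, a citrate synthase gene, at 0.03 and pmt1 at 0.03. Nearest to cnx1 were tf2d, ran1 and pgk1, at 0.03 to 0.04, and nearest to hac1 were hap3, dpm1 and spt4, at 0.03 to 0.04. A pattern over 4 arrays is short, and these are descriptions among 213 or 214 candidate genes.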

How the data were processed

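Messenger RNA was measured on 4 one-colour arrays (2 of AT01, 2 of WT), labelled with Cy3 per the labels' protocols. The submitters' processing notes name Agilent Feature Extraction 10.5.1.1 as the image software. The intensity values deposited by the authors are spot signals that this software had background-subtracted, linear in scale per the file headers. The authors' deposited value table behaves as log2 values, covers 28201 probes and has a median of 4.31 in each column; how it was normalized is not stated in the labels. Here the log2 processed signal minus each array's 75th percentile was averaged over the probes of a gene, without control and outlying spots, and tested with limma 3.58.1 in R 4.3.3 (lmFit, eBayes, Benjamini-Hochberg adjustment). Of 9127 array genes, 9070 (99.4%) shared their number with a locus tag of the v2.0 QM6a assembly. Coordinates are left out, since no source ties the array to a gene build. All 4 arrays carry 1 scan time, so no batch was fitted. Normexp (offset 50) used the median spot signals, since the files hold no mean signal. Lists and descriptions that need protein or promoter sequence were not analysed here. With 2 arrays per strain the precision is low. The fit was tested on simulated data. The 4 genes, the symbol list and the rule for named genes were chosen with earlier results of these data known. That rule covers the 4 genes, the largest called changes of each list, the 3 nearest patterns per gene and the hyphal and conidial markers. The genes ire1, ptc2, dpm1, mpg1, ftt1, ftt2 and sar1 were named after their values were seen.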

Additional observations from a re-analysis of the deposited data

How the results depend on the processing

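The analysis was repeated under 19 other settings, 3 of them chosen after the data had been seen (the median over probes, all probes except the brightest, and probes with an outlying spot left out on all arrays). The log2 fold change of bip1 passed the threshold with normexp (0.76), quantile normalization (0.87), cyclic loess (0.84), the percentile over detected probes (0.50), the trended and robust prior (0.38) and in the deposited table (0.79). It lay between 0.26 and 0.50 with 1 array left out. That of pdi1 passed with normexp (0.25), turned to -0.0063 without the brightest probe, and lay between -0.10 and 0.11 with 1 array left out. That of cnx1 turned positive with normexp (0.29), quantile normalization (0.14), cyclic loess (0.19), the percentile over detected probes (0.088), the brightest probe (0.40) and in the deposited table (0.11), and lay between -0.084 and 0.028 with 1 array left out. That of hac1 passed with normexp (0.25), turned to -0.86 with the brightest probe, and lay between 0.06 and 0.19 with 1 array left out.

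Of all genes, 3558 were called, against 5799 with normexp, 1865 with quantile normalization, 1964 with cyclic loess, 2321 with dim probes raised to 1 common lower limit (-3.82), 1443 with the median over probes and 1661 to 2576 with 1 array left out, 1661 without AT01 array 2 and 2306 without AT01 array 1. Of the 19 genes of the ER and secretory list, 2 were called, against 8 with normexp, 4 with cyclic loess, 5 with the brightest probe, 6 with the trended and robust prior, 4 in the deposited table, 1 with the mean over detected probes, 1 with the median over probes, 1 without the brightest probe and 1 to 2 with 1 array left out. Over all 8018 genes the calls numbered 3206 with the brightest probe and 3827 with the trended and robust prior. They numbered 2372 in the deposited table, 2810 with the mean over detected probes and 2957 without the brightest probe. No list count exceeded the share of all genes called in its setting. Of the 20 probes, 2 were called, where 15.2% of all tested probes were called higher and 17.2% lower. With normexp 13 were called, where 12.3% were called higher and 14.6% lower. All calls were higher with quantile normalization (5), cyclic loess (7) and the deposited table (5), where 14.2%, 15.0% and 15.2% were. Within arrays, the change of pdi1 minus cnx1 turned to -0.040 with normexp and -0.35 with the brightest probe and lay between -0.056 and 0.13 with 1 array left out. That of cnx1 minus hac1 turned to 0.036 with normexp, and with the brightest probe bip1 minus cnx1 turned to -0.026, pdi1 minus hac1 to 0.92 and cnx1 minus hac1 to 1.27. The cause of these differences between settings was not tested. No label says whether a replicate number marks a culture or day shared by the 2 strains. Deviations of same-numbered arrays had a correlation across genes of 0.01, a single value that does not settle this. With the replicate number as a block, the 4 genes kept their log2 fold changes (bip1 0.38, pdi1 0.01, cnx1 -0.03, hac1 0.12) and were not called, the genes called numbered 3773 and the list had 3 calls. The slide or scan as a block was not run, since all arrays share 1 scan time, and neither was any alternative for a list of ER retention signals, for which protein sequences were not used here.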
